A study of Homo sapiens with 6 samples.

Results

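The 36 genes described here encode lysosomal membrane proteins, the proteases, glycosidases, sulfatases and lipid-handling proteins of the lysosome, and proteins that start, tag or carry cargo for autophagy. They were taken by gene symbol from the 34594 entries of the deposited value table; the list of symbols was drawn up with earlier results of these data known. All 36 had an entry, 33 lay above the detection limit on at least 1 array and were tested among 11091 such entries, and 29 lay above it on all 6 arrays. The cells were 1E8 and 2B4, subclones of PC-3M, an established human line derived from the prostate cancer line PC-3. Each subclone was cultured in RPMI 1640 with fetal bovine serum and either left without ATP as a control or given 100 µM ATP for 6 h or for 12 h. Each of the 6 combinations was measured once, on 1 Illumina bead array of biotin-labelled cRNA. The labels do not give the time at which a control was collected, so the single control array of a subclone served both ATP times. Each subclone is a single clone, and a difference between them cannot be told apart from differences between any clones of the line.

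Lysosomes are acidic organelles in which hydrolases digest proteins, sugars, nucleic acids and lipids that arrive by endocytosis or by autophagy, in which a double membrane encloses cytoplasm and then fuses with the lysosome. The transcription factor TFEB and its relatives bind an E-box of the CLEAR type in the promoters of many lysosomal genes, and the kinase mTORC1, which is recruited to the lysosome surface by Rag GTPases, keeps TFEB in the cytoplasm while nutrients are plentiful. Several cathepsins are also secreted by tumour cells and can cleave extracellular matrix.

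The promoters below are shown because they carry the letters that TFEB-type factors are known to bind. RefSeq promoter sequence on GRCh38.p14 was matched for 26 of the 36 genes, and the 250 bases before the annotated start were searched for CACGTG and for its extended form TCACGTGA. Both are palindromes, so 1 strand covers both, and the longer form contains the shorter one. CACGTG lay in 6 of the 26 windows (23.1%), against 1772 of 27305 RefSeq promoters (6.49%) and 9.24% of the 7480 matched promoters of tested genes. TCACGTGA lay in 4 of the 26 (15.4%), against 0.89% of all promoters and 1.91% of the 7480 matched promoters of tested genes. The stretches run 5′ to 3′ on the strand of the gene, with the longest matching form in capitals.
LAMP1: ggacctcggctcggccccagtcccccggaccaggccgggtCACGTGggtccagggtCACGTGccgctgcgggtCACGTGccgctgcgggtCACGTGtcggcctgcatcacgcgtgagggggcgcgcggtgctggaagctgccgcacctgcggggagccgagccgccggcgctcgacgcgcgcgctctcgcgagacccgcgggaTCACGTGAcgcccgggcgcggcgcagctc
MCOLN1: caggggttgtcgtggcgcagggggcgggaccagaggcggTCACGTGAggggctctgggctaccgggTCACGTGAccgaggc
CTSA: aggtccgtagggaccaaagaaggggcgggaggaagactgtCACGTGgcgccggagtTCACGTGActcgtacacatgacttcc
CTSD: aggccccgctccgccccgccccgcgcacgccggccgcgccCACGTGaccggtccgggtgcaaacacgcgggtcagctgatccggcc
GAA: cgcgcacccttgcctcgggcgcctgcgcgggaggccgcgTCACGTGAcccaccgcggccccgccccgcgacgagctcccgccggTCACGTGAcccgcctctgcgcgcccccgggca
NEU1: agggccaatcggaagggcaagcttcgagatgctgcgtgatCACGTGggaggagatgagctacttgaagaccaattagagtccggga
The LAMP1 stretch is chr13:113297007-113297238 on the plus strand and holds 5 matches, with the first base of CACGTG 192, 176, 159, 142 and 28 bases before the start. MCOLN1 is chr19:7522543-7522623 on the plus strand, with matches 41 and 14 bases before the start. For CTSA the stretch is chr20:45891253-45891334 on the plus strand, with matches at 42 and 25 bases. CTSD lies at chr11:1763929-1764014 on the minus strand and has 1 match, at 47 bases. GAA is chr17:80101465-80101580 on the plus strand, with CACGTG at 76 and 31 bases, both times within the extended form. NEU1 is chr6:31862902-31862987 on the minus strand, with 1 match at 126 bases. GLA and SQSTM1, whose values are given below, were matched and have no CACGTG in this window. A match is a description of the letters only.

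The deposited values are background-subtracted intensities on a linear scale, and a detection limit was set on each array at 3 widths above the peak of its dim values. The limit lay between 43.9 and 52.6 on 5 arrays and at 29.7 on the 1E8 control array, whose dim values were the narrowest and which had 11231 entries above its limit, against 9403 to 9866 on the other 5. Of the markers listed for PC-3, the keratins KRT8, KRT18 and KRT19, EPCAM, VIM and CD44 were above the limit on all 6 arrays, with summed intensities of 6505 to 6909.96 in 1E8 and 6764 to 6959 in 2B4, of which VIM, a mesenchymal marker, was the largest term. Single markers differed between the subclones: EPCAM was at 433 to 491 in 1E8 and 104 to 122 in 2B4, and KRT8 at 232 to 409.9 in 1E8 and 148 to 175 in 2B4. Their part in the subclone differences below was not tested. None of 5 fibroblast and none of 5 leukocyte markers was above it on any array. Of 4 endothelial markers, PECAM1 alone was above the limit, at 54.3 to 102. HEXA, CTSS and TFEB itself were under the limit on all 6 arrays, at −22.7 to −13.8 for HEXA, −27.8 to −14.1 for CTSS and 1.32 to 12.7 for TFEB. These 3 genes were therefore not measured, which does not show that they were absent.

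The comparison of the subclones asked which lysosomal genes differed between 1E8 and 2B4 across the 3 matched conditions. Of the 33 tested genes, 3 were higher in 1E8 (CTSH, SGSH and SQSTM1) and 8 were lower (GLA, MANBA, NEU1, LAMP2, NPC1, LIPA, NPC2 and CTSL1). That is 33.3% of the genes tested, against 17.2% of all 11091 entries, of which 9.21% were higher and 7.97% lower. CTSH is counted here, although it was tested only because its 1E8 arrays passed the limit. With only entries above the limit on all 6 arrays tested, which leaves CTSH out, 2 genes of 29 were higher and 9 lower. Over all entries 724 were higher and 812 lower in that fit. In RNA of whole cultures, fewer expressing cells and less RNA per cell cannot be told apart. The median difference was −0.18 on the log2 scale over the 33 genes and 0.01 over all entries. The model was fitted with limma to log2(intensity + 16) of all 6 arrays, negative intensities counting as 0, with subclone and condition as terms. A gene was called at a Benjamini-Hochberg adjusted p under 0.05 over all entries. The offset of 16 makes each fold an understatement for dim genes. With no second array in any group, the error comes from how far the 2 subclones disagree on the effect of the conditions, with 2 residual degrees of freedom before limma's moderation.

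**Figure D1:**
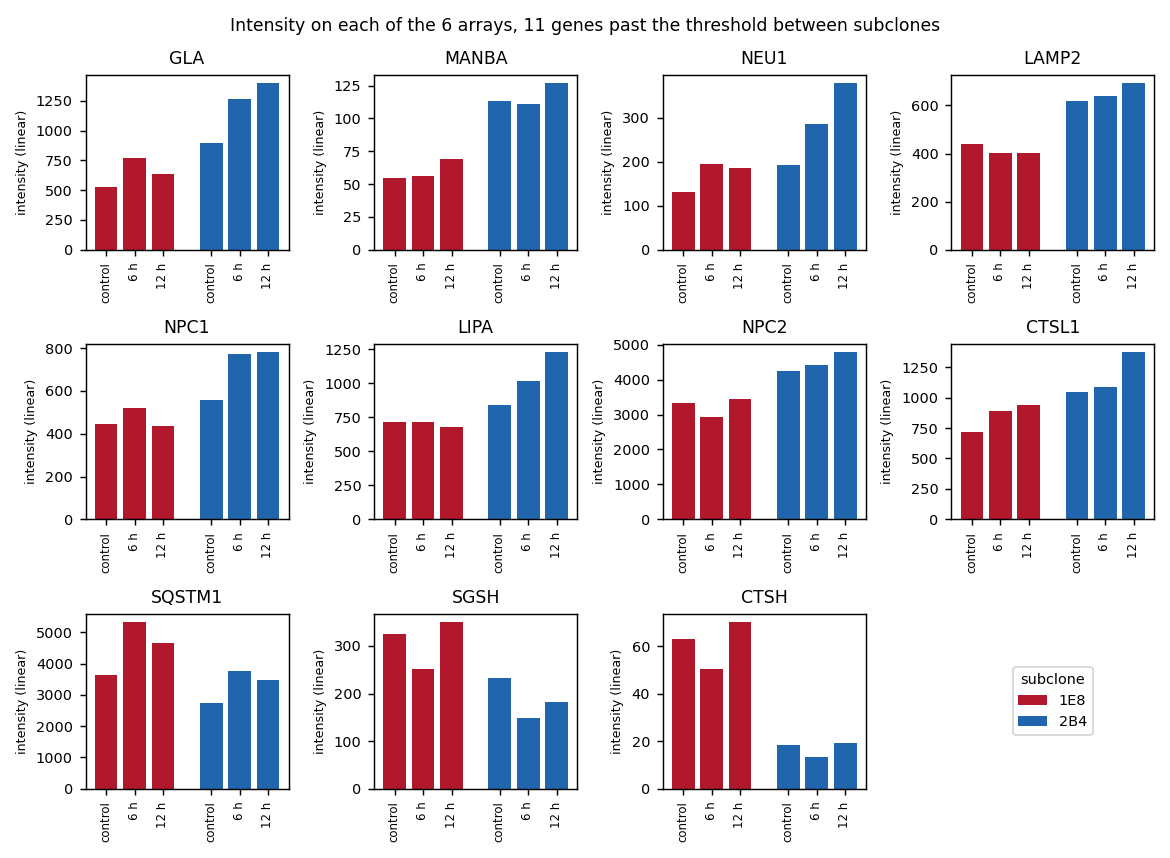
Deposited intensity (linear, arbitrary units) of the 11 called genes on each of the 6 arrays, with 1E8 bars left of 2B4 bars and control, 6 h and 12 h of ATP in that order within each. The 1E8 arrays of CTSH sit between 50.2 and 70.1, all above the 2B4 arrays at 13.5 to 19.4, whereas those of GLA, at 528 to 774, all sit below 2B4, at 897 to 1401.

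Among the membrane proteins, 2 of 5 were lower in 1E8 and none was higher. LAMP2, a glycoprotein of the lysosomal membrane that is needed for fusion with autophagosomes and, in one isoform, for chaperone-mediated autophagy, had intensities of 439, 402 and 403 in 1E8 (control, 6 h and 12 h of ATP), against 618, 640 and 694 in 2B4. Every 1E8 array was below every 2B4 array, and the log2 difference was −0.63 ± 0.11 (SE; limma adjusted p = 0.0134). NPC1, the membrane protein that exports cholesterol from the lysosome, had 443, 521 and 435 in 1E8, against 558, 772 and 780 in 2B4. The groups did not overlap, and the log2 difference was −0.56 ± 0.13 (SE; limma adjusted p = 0.0292). LAMP1, the other abundant membrane glycoprotein, read 1150 to 1191 in 1E8 and 1361 to 1500 in 2B4, with no overlap, but missed the threshold at −0.30 (limma adjusted p = 0.104). SCARB2, the receptor that carries glucocerebrosidase to the lysosome, lay the other way, at 1198 to 1312 in 1E8 and 942 to 1039 in 2B4, with a difference of 0.34 (limma adjusted p = 0.0804). MCOLN1, the lysosomal calcium channel, overlapped, at 107 to 127 in 1E8 and 126 to 161 in 2B4.

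The proteases gave 1 higher and 1 lower gene of 8. CTSH, an aminopeptidase of the papain family, had 63.0, 50.2 and 70.1 in 1E8 (control, 6 h and 12 h), against 18.5, 13.5 and 19.4 in 2B4. Each 2B4 array was under its detection limit and each 1E8 array above its own. The log2 difference was 1.22 ± 0.10 (SE; limma adjusted p = 0.00107). Because the 2B4 level has only a bound, CTSH was at least 1.28-fold higher in 1E8, taking the limit of each 2B4 array as its level. CTSH was tested only because its 1E8 arrays passed the limit, so its p adds no support beyond this bound. CTSL1, now named CTSL, an endopeptidase of the same family, had 721, 887 and 936 in 1E8, against 1045, 1088 and 1372 in 2B4. The groups did not overlap, and the log2 difference was −0.45 ± 0.11 (SE; limma adjusted p = 0.0370). Of the other 6 proteases, the dipeptidyl peptidase CTSC did not overlap either, at 526 to 555 in 1E8 and 629 to 706 in 2B4, and nor did the tripeptidyl peptidase TPP1, at 469 to 510.1 in 1E8 and 511 to 578 in 2B4. CTSA, CTSB, CTSD and CTSZ overlapped between the subclones. CTSD, the main aspartic protease of the lysosome, spanned 261 to 379 in 1E8 and 362 to 476 in 2B4.

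The glycosidases, which remove sugars from glycoproteins and glycolipids, gave 3 lower genes of 8 and none higher. GLA, the alpha-galactosidase lost in Fabry disease, had 528, 774 and 634 in 1E8 (control, 6 h and 12 h), against 897, 1266 and 1401 in 2B4. It was 1.81-fold lower in 1E8 on the offset scale, with no overlap and a log2 difference of −0.86 ± 0.13 (SE; limma adjusted p = 0.00730). MANBA, the beta-mannosidase, had 54.4, 56.3 and 68.8 in 1E8, against 113, 111 and 127 in 2B4. The lowest 2B4 array was well above the highest 1E8 array, and the log2 difference was −0.82 ± 0.10 (SE; limma adjusted p = 0.00465). NEU1, the sialidase that works in a complex with CTSA and GLB1, had 131, 195 and 187 in 1E8, against 192.7, 285 and 380 in 2B4. Here the 6 h array of 1E8 slightly exceeded the 2B4 control, while within each condition 1E8 was lower, with a log2 difference of −0.66 ± 0.13 (SE; limma adjusted p = 0.0189). GLB1, the beta-galactosidase, read 215 to 257 in 1E8 and 258 to 277 in 2B4, without overlap and without a call. NAGLU, at 49.7 to 68.0 in 1E8 and 68.9 to 87.5 in 2B4, was likewise apart and uncalled. GUSB, the beta-glucuronidase, was the glycosidase with the opposite order, at 258 to 317 in 1E8 and 228 to 252 in 2B4, also uncalled (limma adjusted p = 0.184). GAA and MAN2B1 overlapped.

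Of 3 sulfatases, which remove sulfate groups from glycosaminoglycans and sulfatides, SGSH was higher in 1E8. This heparan sulfamidase had 326, 251 and 350.4 in 1E8 (control, 6 h and 12 h), against 233, 148 and 182 in 2B4. Every 1E8 array was above every 2B4 array, with a log2 difference of 0.68 ± 0.12 (SE; limma adjusted p = 0.0140). IDS, at 110.4 to 134 in 1E8 and 154 to 163 in 2B4, did not overlap and was not called. ARSA, at 50.6 to 60.9 in 1E8 and 51.0 to 82.2 in 2B4, overlapped.

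Of the 4 lipid genes, 2 were lower in 1E8 and none was higher. LIPA, the acid lipase that frees cholesterol from its esters, had 712, 718 and 679.9 in 1E8 (control, 6 h and 12 h), against 839.7, 1017 and 1225 in 2B4. The log2 difference was −0.52 ± 0.14 (SE; limma adjusted p = 0.0478), the call nearest the threshold. NPC2, which hands cholesterol to NPC1, had 3342, 2921 and 3451 in 1E8, against 4249.8, 4414 and 4779.7 in 2B4. Its log2 difference was −0.47 ± 0.11 (SE; limma adjusted p = 0.0313), and neither LIPA nor NPC2 overlapped between the subclones. LIPA, NPC2 and NPC1, which act in turn on cholesterol taken up with lipoproteins, were each called and each lower in 1E8 in all 3 conditions, a grouping made after their values were seen. The ceramidase ASAH1 was at 40.9 to 57.3 in 1E8 and 63.6 to 72.2 in 2B4 (limma adjusted p = 0.0678). The saposin precursor PSAP was at 3793 to 3922 in 1E8 and 3197 to 3687 in 2B4 (limma adjusted p = 0.300).

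Of 5 tested autophagy genes, SQSTM1 was higher in 1E8. SQSTM1 (p62), the receptor that links ubiquitinated cargo to the forming autophagosome, had 3629, 5327 and 4642 in 1E8 (control, 6 h and 12 h), against 2742, 3746 and 3477 in 2B4. Within each condition 1E8 was higher, by 0.40, 0.51 and 0.42 on the log2 scale, although the 1E8 control was below the 6 h array of 2B4. The fitted difference was 0.44 ± 0.10 (SE; limma adjusted p = 0.0320). GABARAPL1, a ubiquitin-like protein that is joined to the autophagosome membrane, was at 85.9 to 107 in 1E8 and 113 to 156 in 2B4, without overlap, and missed the threshold at −0.42 (limma adjusted p = 0.0696). MAP1LC3B, its better known relative, ULK1, the kinase that starts autophagy, and WIPI1, which binds the phosphoinositide on the forming membrane, overlapped between the subclones.

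**Figure D2:**
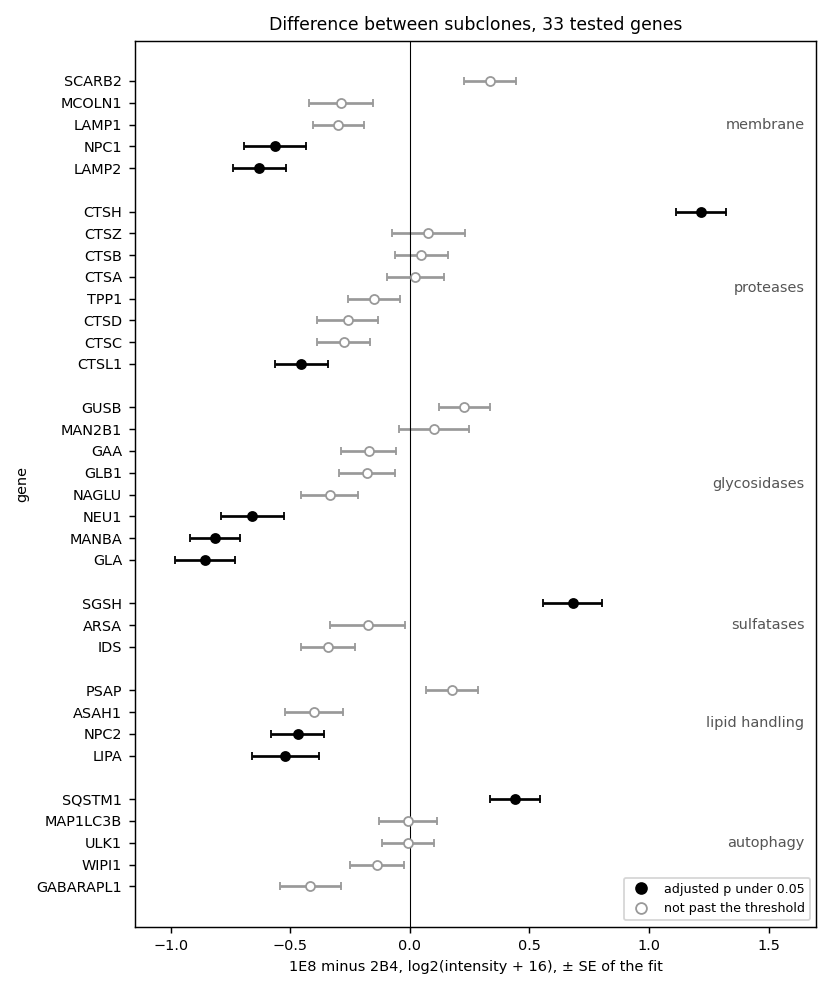
Difference 1E8 minus 2B4 on the log2(intensity + 16) scale for the 33 tested genes, ordered by role; points are limma estimates over the 3 matched conditions and bars are 1 SE, with called genes marked. CTSH stands farthest to the right at 1.22, GLA and MANBA farthest to the left at −0.86 and −0.82, and 23 of the 33 estimates lie below 0.

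Counted without a model, the 3 arrays of one subclone lay wholly above or below those of the other in 20 of the 33 genes (60.6%), against 36.1% of all entries. In 5 of these, CTSH among them, 1E8 was higher (15.2% of the genes, against 18.9% of all entries). In 15 it was lower (45.5%, against 17.3%). Some gaps were narrow, as for TPP1 (510.1 in 1E8, 511.4 in 2B4) and GLB1 (256.5 in 1E8, 258.2 in 2B4). NAGLU at 12 h and ASAH1 at 6 h were under the limit in 1E8. This count was made on the deposited scale alone. On the deposited scale the medians over the 33 genes were −0.20 without ATP, −0.18 at 6 h and −0.20 at 12 h. Over all entries they were 0.06, −0.01 and −0.02. With the arrays scaled to one median, those of the 33 genes were −0.27, −0.16 and −0.16. By the readings on the offset scale, CTSH alone differed by 2-fold or more upward in 1E8 in each condition, as did 2.84% of all entries without ATP, 1.8% at 6 h and 1.75% at 12 h, but its 2B4 readings were under the limit and the bound above is all that they give. GLA was at least 2-fold lower at 12 h, at −1.12, as were 2.02% of all entries, and no gene was so without ATP or at 6 h (1.72% and 1.7% of all entries). The calls depended on which arrays were used. CTSH is counted among them, though it was tested only because its 1E8 arrays passed the limit. Without either control array 10 of the 11 calls held, without either 6 h array 6, and without either 12 h array 3, which were CTSH, GLA and MANBA. Over all 11091 entries 2562, 1155 and 920 were called in the same fits, against 1906 with all 6 arrays. Without a 12 h array the share of these genes, 3 of 33, was close to that of all entries, 920 of 11091. With no filter on dim entries, none of the 36 genes and none of 30835 entries passed (smallest limma adjusted p = 0.0637), although 16 of the 36 (44.4%) were at an unadjusted p under 0.05, against 14.8% of all entries in that fit.

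The rest of the pathway was taken from 6 lists of genes with known roles, of which 154 genes were tested. In the subclone comparison 10 of the 154 were higher in 1E8 and 12 were lower, or 14.3%, against 17.2% of all entries. The subunits of the V-ATPase, the proton pump that acidifies the lysosome, gave 1 higher and 4 lower genes of 16, with a median of −0.13. Other lysosomal enzymes gave 2 higher and 2 lower of 26 (median −0.05), and other lysosomal membrane proteins 1 and 2 of 25 (−0.12). Genes for sorting to the lysosome, by mannose phosphate or otherwise, gave 1 and 1 of 18 (−0.07). Other autophagy genes gave 3 higher and 3 lower of 39 (0.04). Genes of the TFEB family and of mTORC1 control gave 2 higher and none lower of 30 (−0.07).

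RRAGD, one of the Rag GTPases through which mTORC1 and TFEB are brought to the lysosome, differed most among the genes of these lists. Its intensity was 158, 118 and 147 in 1E8 (control, 6 h and 12 h), against 15.7, 14.4 and 15.4 in 2B4. All 2B4 arrays were under the detection limit, so RRAGD was at least 2.98-fold higher in 1E8. The fitted log2 difference was 2.33 ± 0.11 (SE; limma adjusted p = 0.000146). RRAGD was tested only because its 1E8 arrays passed the limit, so this p adds no support beyond the bound. ATP6AP2, the accessory subunit of the V-ATPase also known as the prorenin receptor, had 979, 950.5 and 979 in 1E8, against 2027, 1899 and 2004 in 2B4. Its log2 difference was −1.02 ± 0.10 (SE; limma adjusted p = 0.00182), while the V-ATPase subunit ATP6V0D1 was also lower in 1E8 (−0.62, limma adjusted p = 0.0152) and ATP6V0E2 was higher (0.63, limma adjusted p = 0.0127). SIDT2, a lysosomal membrane protein, had 177, 185 and 204 in 1E8, against 359, 343 and 472 in 2B4 (−0.98, limma adjusted p = 0.00319). SORT1 (sortilin), a sorting receptor of the Golgi, had 90.6, 114 and 124 in 1E8, against 47.8, 46.4 and 54.7 in 2B4 (0.93, limma adjusted p = 0.00413). The cathepsin CTSL2, now CTSV, had 208, 166 and 174 in 1E8, against 95.8, 82.9 and 135 in 2B4 (0.74, limma adjusted p = 0.0205), the opposite order to CTSL1. Of the autophagy genes, PIK3C3, the catalytic subunit of the class III phosphoinositide kinase, was higher in 1E8 (0.63, limma adjusted p = 0.0124), and its partner BECN1 was lower (−0.61, limma adjusted p = 0.0281).

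**Figure D3:**
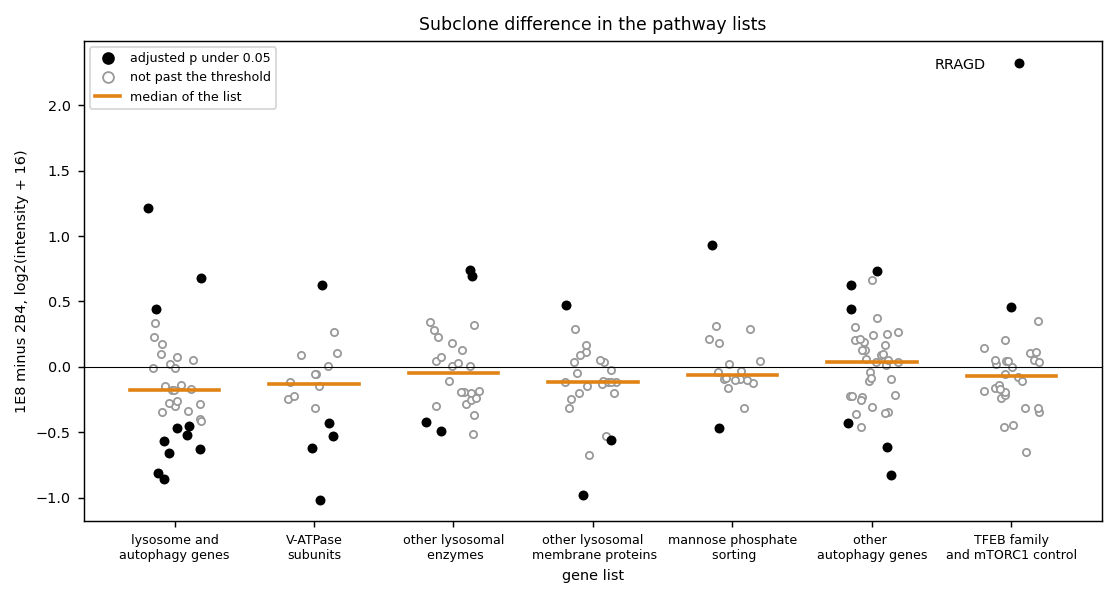
Difference 1E8 minus 2B4 on the log2(intensity + 16) scale for every tested gene of the 33 and of the 6 further pathway lists; each point is 1 gene and filled points passed the limma threshold and lines are list medians. RRAGD at 2.33 lies apart from the other genes of the lists, and ATP6AP2 at −1.02 is the lowest.

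DRAM1, a lysosomal protein induced by p53, was at least 1.39-fold higher in 1E8 and the amidase NAAA at least 1.35-fold, both with all 2B4 arrays under the limit. FNIP1, a partner of folliculin, was at least 1.25-fold higher by the same reckoning (limma adjusted p = 0.0438). DRAM1, NAAA and FNIP1 were tested only because their 1E8 arrays passed the limit, as was RRAGD. ABCB9, a peptide transporter, was also higher (0.47, limma adjusted p = 0.0423). WDR45, an autophagy protein related to WIPI1, is counted among the lower genes but was above the limit on the 12 h array of 2B4 alone, so no fold is given. It read 11.9, 22.6 and 15.8 in 1E8, against 45.0, 34.0 and 47.0 in 2B4. LAPTM4B, GM2A and GNPTG were lower as well, at −0.56, −0.49 and −0.47. Of 18 calls taken from the lists by one rule, 16 stayed past the threshold without either control array, 11 without either 6 h array and 8 without either 12 h array.

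The comparisons with ATP asked whether extracellular ATP shifted these genes in either subclone. No gene of the 33, and none of the 11091 entries (0%), passed the limma threshold for ATP against control, for either time against control, or for 12 h against 6 h, so no ATP effect was called. At an unadjusted p under 0.05 for ATP against control, 5 of the 33 were higher and none was lower, together 15.2% of the genes. Over all entries 350 were higher and 783 lower, or 10.2%, a split that depended on the scaling between arrays: 577 were higher and 552 lower with arrays scaled to one median, and 494 and 596 with quantile normalization. The 5 were NEU1, GLA, SQSTM1, CTSD and WIPI1. Of the 33 estimates 17 were positive and 16 negative, with a median of 0.02, against −0.03 over all entries.

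NEU1, the sialidase, had the largest estimate for ATP over both times. It read 195 and 187 in 1E8 after 6 h and 12 h of ATP, against 131 in the 1E8 control, and 285 and 380 in 2B4, against 192.7 in the 2B4 control. All 4 ATP arrays were above their control, with a log2 difference of 0.61 ± 0.14 (SE; limma adjusted p = 0.259). GLA read 774 and 634 in 1E8 with ATP at 6 h and 12 h, against 528 without, and 1266 and 1401 in 2B4, against 897 without. The log2 difference was 0.48 ± 0.13 (SE; limma adjusted p = 0.336). SQSTM1 read 5327 and 4642 in 1E8 with ATP at 6 h and 12 h, against 3629 without, and 3746 and 3477 in 2B4, against 2742 without. In both subclones the 6 h array was the highest of the 3, and the difference over both times was 0.42 ± 0.11 (SE; limma adjusted p = 0.318). CTSD, the aspartic protease, read 379 and 374 in 1E8 with ATP at 6 h and 12 h, against 261 without, and 378 and 476 in 2B4, against 362 without. The gap was narrow at 6 h in 2B4, at 0.06 on the log2 scale, and the estimate was 0.36 ± 0.13 (SE; limma adjusted p = 0.444). It ranged from 0.22 to 0.51 as each array was left out, the lowest being without the 1E8 control, and passed in none of these fits.

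In these 4 genes and CTSL1 each ATP array exceeded the control of its subclone, or in 15.2% of the 33, against 10.2% of all entries. GUSB and TPP1 were lower on all 4 (6.06%, against 17.9%), with differences of −0.16 and −0.10 (limma adjusted p = 0.653 and 0.807). GUSB was −0.10 without the 1E8 control, and TPP1 was −0.06 without the 12 h array of 2B4. These counts move with the scaling between arrays, since in 1E8 the median of all entries lay below the control, by −0.07 at 6 h and −0.08 at 12 h. With the arrays scaled to one median, 10 genes were higher on all 4 ATP arrays, the further 5 being LAMP1, SCARB2, CTSC, NPC1 and LIPA, and GUSB alone was lower. NEU1, GLA, SQSTM1, CTSD and CTSL1 were higher on all 4 under each scaling. Of the 6 genes with CACGTG in the promoter window, 5 had a positive estimate for ATP (median 0.05), against 10 of 19 tested genes matched without it (median 0.02). Over all entries 4647 of 11091 were positive. At 12 h against control the medians were 0.075 with CACGTG and 0.080 without it. Among the 5, LAMP1, MCOLN1 and CTSA moved in opposite ways in the subclones on the deposited scale. A link between these letters and ATP was not tested.

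At 6 h against control, 15 estimates of the 33 were positive and 18 negative, with a median of −0.04, the same as over all entries (−0.04). At an unadjusted p under 0.05, 3 were higher and 1 lower, against 9.84% of all entries. Both ATP arrays at 6 h were above their control in 8 genes (24.2%, against 21.8% of all entries) and below it in 12 (36.4%, against 31.8%). The highest differences were 0.52 ± 0.16 for NEU1 (SE; limma adjusted p = 0.376), 0.51 for GLA, 0.50 for SQSTM1 and 0.34 for NPC1, the last of which was 0.16 without the 2B4 control and 0.52 without the 1E8 control. SGSH was the lowest, reading 251 in 1E8 with 6 h of ATP, against 326 without, and 148 in 2B4, against 233 without (−0.48 ± 0.15, SE; limma adjusted p = 0.382), with −0.31 when the 2B4 control was left out. ULK1 was at −0.28, GABARAPL1 at −0.24 and GUSB at −0.21, and the highest limma adjusted p of these 4 was 0.672. GABARAPL1 was −0.04 without the 2B4 control and −0.44 without the 1E8 control. The 6 h counts above are on the deposited scale, on which the median of all entries in 1E8 lay under its control. With the arrays scaled to one median, 18 estimates were positive and 15 negative, with a median of 0.01, as over all entries.

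At 12 h against control, which uses the same control arrays, 21 estimates were positive and 12 negative, with a median of 0.05, against −0.04 over all entries. At an unadjusted p under 0.05, 6 were higher and none lower, against 9.15% of all entries. WIPI1 read 156 in 1E8 after 12 h, against 94.2 in the 1E8 control, and 176 in 2B4, against 118 in the 2B4 control (0.58 ± 0.14, SE; limma adjusted p = 0.394). NEU1 was at 0.69, GLA at 0.45 and CTSD at 0.44, with limma adjusted p from 0.394 to 0.486. GLA was 0.24 without the 12 h array of 2B4. Of genes detected on every array and lower in both subclones, GUSB and TPP1 were the lowest, each at −0.11 (limma adjusted p = 0.844 and 0.851). Both ATP arrays at 12 h were above their control in 11 genes (33.3%, against 19.5% of all entries) and below it in 3 (9.09%, against 29.8%). The 12 h counts too are on the deposited scale. With the arrays scaled to one median, 23 estimates were positive and 10 negative, with a median of 0.11, against 0.02 over all entries.

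**Figure D4:**
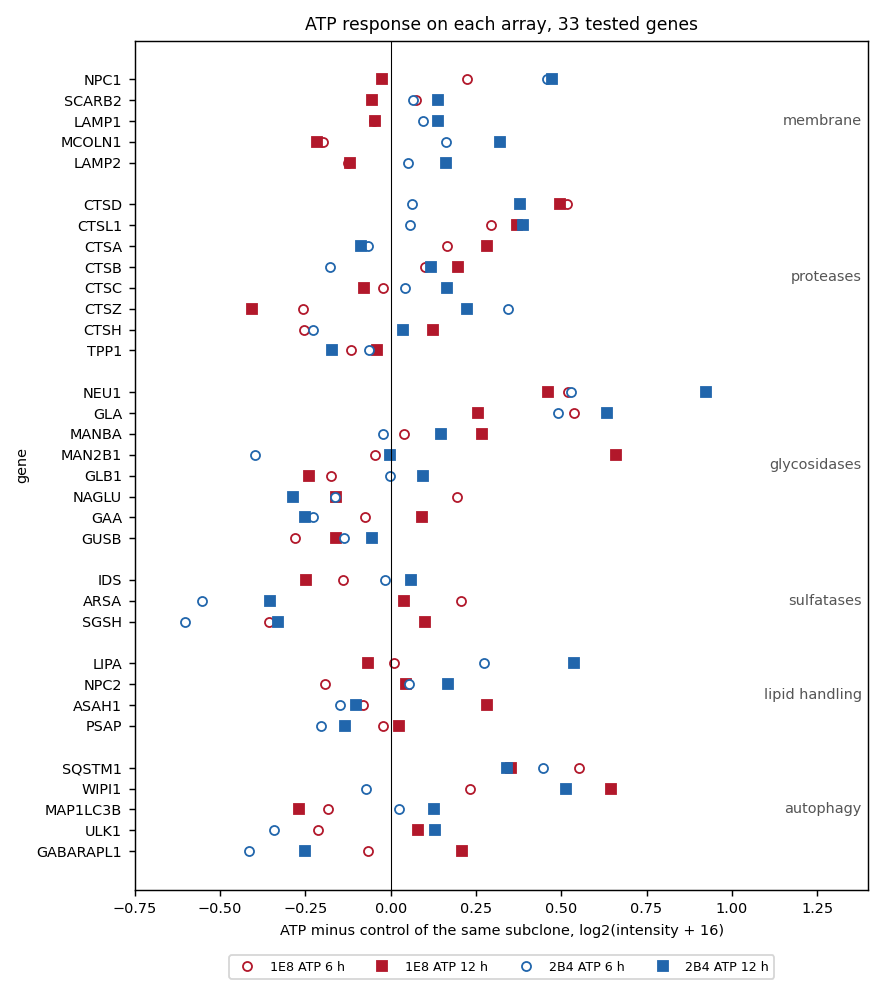
Difference of each of the 4 ATP arrays from the control array of its subclone, on the log2(intensity + 16) scale, for the 33 tested genes by role. No point reaches a 2-fold difference; NEU1, GLA, SQSTM1, CTSD and CTSL1 have all 4 points above 0.

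Between the times, 12 h lay above 6 h in 25 of the 33 estimates, with a median of 0.07, against 0.00221 over all entries. The control arrays play no part in these estimates, but they enter the error and so the p-values. With no adjustment, 5 genes at p under 0.05 were higher at 12 h and none was lower, against 6.92% of all entries. The 5 were WIPI1, ULK1, SGSH, MAN2B1 and CTSH, the last 2 of which had arrays of this comparison under the limit. Both subclones were higher at 12 h in 15 genes (45.5%, against 30.1% of all entries) and lower in 3 (9.09%, against 29.1%). WIPI1 had the largest difference of genes detected on every array, with 156 at 12 h against 113 at 6 h in 1E8, and 176 against 112 in 2B4 (0.50 ± 0.14, SE; limma adjusted p = 0.610). ULK1 read 150.3 at 12 h against 119.7 at 6 h in 1E8, and 160.2 against 111 in 2B4 (0.38 ± 0.13, SE; limma adjusted p = 0.634). SGSH was at 0.36, with 0.21 without the 12 h array of 1E8 and 0.52 without that of 2B4. GABARAPL1 was at 0.22, with 0.08 and 0.36 for the same omissions. MAN2B1, above the limit on 3 arrays, was at 0.55, but both its 6 h arrays were under the limit, at 39.2 in 1E8 and 35.0 in 2B4. CTSH was at 0.32, with both 2B4 arrays under the limit, at 13.5 and 19.4. SQSTM1 was lower at 12 h in both subclones, at −0.15 ± 0.13 (SE; limma adjusted p = 0.923), and CTSZ was at −0.13 ± 0.19 (SE), a sign that turned when 1 array was left out.

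On single arrays, none of the 33 genes differed from the control of its subclone by 2-fold or more in either direction, whereas 0.514% of all entries were higher and 0.811% lower by that much in 1E8 at 6 h, 0.325% and 0.505% in 1E8 at 12 h, 0.27% and 0.325% in 2B4 at 6 h, and 0.37% and 0.307% in 2B4 at 12 h. The largest single difference was 0.92 for NEU1 in 2B4 at 12 h, and the lowest was −0.60 for SGSH in 2B4 at 6 h. With 1 array a group, these single differences have no test.

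Of the 6 further lists, none gave a called gene for ATP against control in limma, while at an unadjusted p under 0.05 there were 4 higher and 5 lower genes of the 154 (5.84%, against 10.2% of all entries). Of 16 V-ATPase subunits, 11 had a positive estimate (median 0.08), and 7 were higher on all 4 ATP arrays (43.8%, against 10.2% of all entries). This was the highest such share of the 6 lists. The others ran from 6.67% to 16.7%, and over all 154 genes it was 14.3%. The ATP arrays of a subclone share its single control array, and these list counts were not repeated under the other scalings. The subunit ATP6V0B was at 0.28 ± 0.11 (SE; limma adjusted p = 0.468) and ATP6V0E2 at −0.22 ± 0.12 (SE; limma adjusted p = 0.557). In the list of the TFEB family and mTORC1 control, 10 of 30 estimates were positive (median −0.06). There TSC2, an inhibitor of mTORC1, was at 0.22 and MAP2K1IP1, now LAMTOR3, a part of the Ragulator scaffold, at −0.35. CD63, a tetraspanin of late endosomes, was at 0.31 (limma adjusted p = 0.444), the thioesterase PPT2 at 0.41 (limma adjusted p = 0.395) and RB1CC1, a subunit of the ULK1 complex, at −0.48 (limma adjusted p = 0.392).

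Whether the ATP response itself differed between the subclones was tested as an interaction, which left 1 residual degree of freedom. No gene of the 33 passed in limma, and 1 of 11091 entries did (0.00902%). At an unadjusted p under 0.05, ARSA was higher and CTSZ lower, against 18.8% of all entries. CTSZ, a carboxypeptidase, read 67.2 and 58.997 in 1E8 with ATP, against 83.4 without, and 74.0 and 66.8 in 2B4, against 54.9 without. The response in 1E8 minus that in 2B4 was −0.62 ± 0.18 (SE; limma adjusted p = 0.189). ARSA, the arylsulfatase, read 60.9 and 52.4 in 1E8 with ATP, against 50.6 without, and 51.0 and 60.8 in 2B4, against 82.2 without, a difference of 0.58 ± 0.22 (SE; limma adjusted p = 0.251). Both genes lay near the detection limit on several arrays. MCOLN1 was lower with ATP in 1E8, at 108 and 107 against 127, and higher in 2B4, at 142 and 161 against 126 (−0.45 ± 0.19, SE; limma adjusted p = 0.272).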

How the data were processed

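Gene expression was measured once in each of 6 groups, by subclone (1E8, 2B4) and condition. Per the labels' protocols, total RNA came from a Trizol extraction followed by an RNeasy clean-up and was amplified to biotin-labelled cRNA with the Illumina TotalPrep kit. The authors deposited 1 intensity per entry and array, on a linear scale with background subtracted, with 24.0% to 25.5% of values below 0 and nearly equal array means. The scanning and normalization software is not given in the sources used here. A further 6 columns of signal and 6 of detection p-values, which match no sample label, were not used.

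Entry names were updated through RefSeq: 17757 were current symbols, 3303 unique older symbols and 13534 were kept as given, and 3270 named by sequence cluster were left out. Where entries shared one name the brightest was kept, which removed 132 above the limit. Deposited values below 0 were set to 0 and turned into log2(intensity + 16). Entries above the limit on at least 1 array were fitted with limma 3.58.1 in R 4.3.3 (lmFit, eBayes), with subclone and condition as terms and, for the interaction, subclone by ATP. Benjamini-Hochberg adjustment ran over all 11091. Where all arrays of a subclone were under the limit, a fold is a bound: the geometric mean of the brighter subclone over that of the limits. The scripts were tested on simulated data.

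The genes and lists were chosen with earlier results of these data known. All called genes were named for the subclones (for each list, up to 2 each way, of which 1 is not reported here), and for ATP the 4 highest and 4 lowest above the limit on all 6 arrays with 1 sign on every pair. For the interaction, up to 3 highest and 3 lowest with opposite movements were named. Where a list had no call, the highest and the lowest gene detected on every array could be named. Alternatives were an offset of 50, scaling to one median, quantile normalization, no filter, a limit on all 6 arrays, a mean-variance trend, and leaving out each array. Arrays are the only replicates, their number limits the precision, and nothing says they came from separate cultures.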

Additional observations from a re-analysis of the deposited data

Results flagged for a closer look

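In 8 of the 33 tested genes both ATP arrays of one subclone lay above their control and both of the other subclone below. CTSA and ARSA, 2 of the 33, were higher with ATP in 1E8 and lower in 2B4, as were 10.2% of all entries. Their response in 1E8 minus that in 2B4 was 0.30 for CTSA and 0.58 for ARSA on the log2 scale. LAMP1, LAMP2, MCOLN1, CTSC, CTSZ and MAP1LC3B, 6 of the 33, were lower with ATP in 1E8 and higher in 2B4, as were 18.3% of all entries. The differences of these 6 were −0.16, −0.23, −0.45, −0.15, −0.62 and −0.30. Neither share of the 33 was above that of all entries. None of the 8 passed the limma interaction test, where their adjusted p ran from 0.189 for CTSZ to 0.686 for CTSC. With the arrays scaled to one median or quantile normalized, CTSA, ARSA, MCOLN1, CTSZ and MAP1LC3B still moved in opposite ways, and LAMP1, LAMP2 and CTSC did not.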

How the results depend on the processing

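The count of genes called between the subclones, 11 of 33, was 10 to 12 under every alternative other than leaving out arrays and the unfiltered fit, which called 0 of 36 genes and 0 of 30835 entries, against 1906 of 11091. The genes called were not always the same. With the limit on all 6 arrays 29 genes were tested, of which 2 were called higher and 9 lower. CTSH was then not tested, and GABARAPL1 was called. Leaving out each array gave 3 to 12 genes and 920 to 2562 entries, and CTSL1 passed in none of these 6 fits. Dropping either array of a condition gives one value, since its partner is then fitted exactly. The ATP comparisons called 0 of the 33 genes in every fit, while leaving out an array gave up to 58 called entries, for ATP against control without the 6 h array of 2B4, and the trend gave 1 at 6 h. Over all entries the interaction called 1, against 740 with a mean-variance trend, 363 with an offset of 50, 284 with the limit on all 6 arrays, 13 with scaling to one median and 0 with quantile normalization or no filter, none among the 33. Scaling to one median moved the positive estimates for ATP against control to 20 of 33, against 17. Of the named genes' single values 4 turned sign, and the cause was not tested. CTSZ at 12 h against 6 h ranged from −0.30 to 0.0309 (without the 12 h array of 1E8) and was 0.01 without the 6 h array of 2B4. For ATP against control, VPS35 ranged from −0.53 to 0.0668 and MAP2K1IP1 from −0.75 to 0.0456, the highest without the 1E8 control in both. Among the other values 66 lost their call when an array was left out and 34 under the other alternatives. The interaction was not fitted with an array left out. No paired analysis was possible because no replicate block can be fitted where the groups share a single number; condition, which matches the arrays of the subclones, was a term of every fit. Signal below the limit on all arrays leaves HEXA, CTSS and TFEB unmeasured.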
